A study of Mus musculus with 17 samples.

Results

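The genes described here encode the nuclear-encoded subunits of respiratory complexes II, III, IV and V of the mouse. They were taken by gene symbol from a table of read counts per gene, as the rows whose Entrez number maps to a symbol beginning with Uqcr, Cox4 to Cox8 or Atp5, together with Cyc1 and Sdha, Sdhb, Sdhc and Sdhd. The rule found 48 of the 24013 genes in the table and used no measured value. They comprised 4 genes of complex II, 9 of complex III, 11 ubiquitous and 7 tissue-specific genes of complex IV, and 17 of complex V. No mitochondrially encoded subunit was among the rows analysed here, so the catalytic core of complex IV, the cytochrome b of complex III and the a subunit of ATP synthase were not measured.

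In the inner mitochondrial membrane, complex II passes electrons from succinate to ubiquinone, complex III passes them on to cytochrome c, and complex IV delivers them to oxygen. The proton gradient built by complexes I, III and IV drives complex V, the ATP synthase. In the testis, several complex IV subunits have isoforms made mainly in male germ cells or in muscle, and spermatogonia, the mitotic germ cells at the base of the seminiferous tubule, are commonly described as relying on glycolysis more than later germ cells do.

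The libraries came from sorted testis cells of mice that all carried the Tert-Tomato/+ genotype on a B6/J X B6/N mixed background, so a telomerase reporter allele was shared by every group. The KITpos group, 5 libraries from adults, was sorted as TERT-High Kit+ and labelled as differentiated spermatogonia. The GFRA1pos group, 4 libraries from adults, was TERT-High, GFRa1+ and Kit-, and the GFRA1neg group, 4 libraries from adults, was TERT-High, GFRa1- and Kit-; both were labelled as undifferentiated spermatogonia. The P6gonocyte group, 4 libraries from neonates on postnatal day 6, was sorted as TERT+ OCT4-GFP+, and the genotype label does not mention the OCT4-GFP reporter. GFRA1 is the receptor through which GDNF maintains stem spermatogonia, and KIT marks spermatogonia that have entered differentiation. The study's title states its purpose as purifying GFRA1-positive and GFRA1-negative spermatogonia to learn how their fate is set. The labels do not say whether replicate libraries came from separate animals, so each p-value measures the spread between libraries, which may be technical.

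Library totals ran from 5178352 to 8300165 counts in KITpos, 10918223 to 11567191 in GFRA1pos, 9965437 to 12641907 in GFRA1neg and 6479216 to 8468203 in P6gonocyte. Among the adult groups, Kit and Gfra1 followed the labels. Kit averaged 353 CPM in KITpos against 17.6 in GFRA1pos and 27.6 in GFRA1neg. Gfra1 averaged 390 CPM in GFRA1pos against 22.8 in GFRA1neg. In P6gonocyte, Kit averaged 188 CPM (166 to 231) and Gfra1 145 CPM. Tert averaged 7.54 CPM in KITpos, 7.25 in GFRA1pos, 11.3 in GFRA1neg and 7.21 in P6gonocyte. Pou5f1, which encodes OCT4, averaged 19.7 CPM in P6gonocyte (5.53 to 26.3), against 0.837 in KITpos, 3.09 in GFRA1pos and 4.28 in GFRA1neg. CPM are counts scaled to a common library total, so each value is a share of a library's RNA, and fewer cells of a type and less RNA per cell cannot be told apart. The germ cell genes Ddx4 and Dazl were present in every library, and their sum averaged 694.1 CPM in KITpos, 388 in GFRA1pos, 573 in GFRA1neg and 1129 in P6gonocyte; both were lower in KITpos and in GFRA1pos than in P6gonocyte. Endothelial markers, summed over 4 genes, averaged 4.80 CPM in KITpos, 24.7 in GFRA1pos, 15.7 in GFRA1neg and 15.0 in P6gonocyte, and all 4 were lower in KITpos than in GFRA1pos. Macrophage markers, summed over 5 genes, averaged 6.86 CPM in KITpos, 19.2 in GFRA1pos, 13.6 in GFRA1neg and 10.8 in P6gonocyte, with Ptprc at 0 in every GFRA1neg library. Sertoli markers, summed over 7 genes, averaged 14.6 CPM in KITpos, 8.71 in GFRA1pos, 22.3 in GFRA1neg and 30.2 in P6gonocyte. Of the 5 tested, 3 were lower and 0 higher than in P6gonocyte in KITpos, and likewise in GFRA1pos. Against GFRA1neg, 2 were lower and 0 higher in GFRA1pos, and 1 was lower and 0 higher in KITpos. Several libraries stood apart. GFRA1neg replicate 2 had the highest summed spermatocyte markers, 1726 CPM over 5 genes, while GFRA1pos replicate 2 (1500 CPM), GFRA1neg replicate 2 (1394 CPM), KITpos replicate 1 (1129 CPM) and GFRA1pos replicate 4 (725 CPM) had the highest summed spermatid markers over 7 genes. P6gonocyte replicate 2 had the most Sertoli marker transcripts of its group, 51.0 CPM over 7 genes against 21.9 to 24.3 CPM in the other P6gonocyte libraries, and also the most transcripts of each of the 4 complexes. KITpos replicate 3 was the lowest KITpos library for complexes II to V. Leydig markers, summed over 7 genes, reached 21.8 to 98.9 CPM in KITpos against 9.77 to 26.5 CPM in GFRA1neg, and 5 of the 6 tested were higher in KITpos. The part of any of these in the results below was not tested beyond the fits that left the libraries out.

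Transcripts of complexes III, IV and V were higher in KITpos cells than in both adult undifferentiated groups, and those of complex II as a whole were not. The summed level of the 9 complex III genes averaged 1084 ± 191 CPM in KITpos (SD, n = 5), against 491 ± 36.5 CPM in GFRA1pos, 509 ± 17.3 CPM in GFRA1neg and 730.3 ± 174 CPM in P6gonocyte (SD, n = 4 each). For complex V the sum was 4783 ± 604 CPM in KITpos, 3412 ± 206 in GFRA1pos, 3622 ± 328 in GFRA1neg and 5974 ± 1030 in P6gonocyte. The 11 ubiquitous complex IV genes summed to 2014 ± 454 CPM in KITpos, 1350 ± 76.8 in GFRA1pos, 1213 ± 160 in GFRA1neg and 1446 ± 287 in P6gonocyte. The complex V sum rested heavily on Atp5b, which averaged 1659 CPM in KITpos and 3504 CPM in P6gonocyte; the other 16 genes summed to 3124 ± 577 CPM in KITpos, 1555 ± 35.7 in GFRA1pos, 1569 ± 133 in GFRA1neg and 2469 ± 435 in P6gonocyte. Gene by gene, 14 of the 17 had their highest mean in KITpos, a count for which the share over all genes was not computed. KITpos and P6gonocyte libraries overlapped in both sums. Every KITpos library lay above every GFRA1neg library for complexes III, IV and V. Against GFRA1pos this held for III and V, while KITpos replicate 3, at 1397 CPM, fell within the GFRA1pos range for complex IV. Complex II genes summed to 487.5 ± 43.6 CPM in KITpos, 497 ± 17.5 in GFRA1pos, 504.5 ± 50.5 in GFRA1neg and 609.9 ± 85.6 in P6gonocyte, and the adult groups overlapped.

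**Figure D1:**
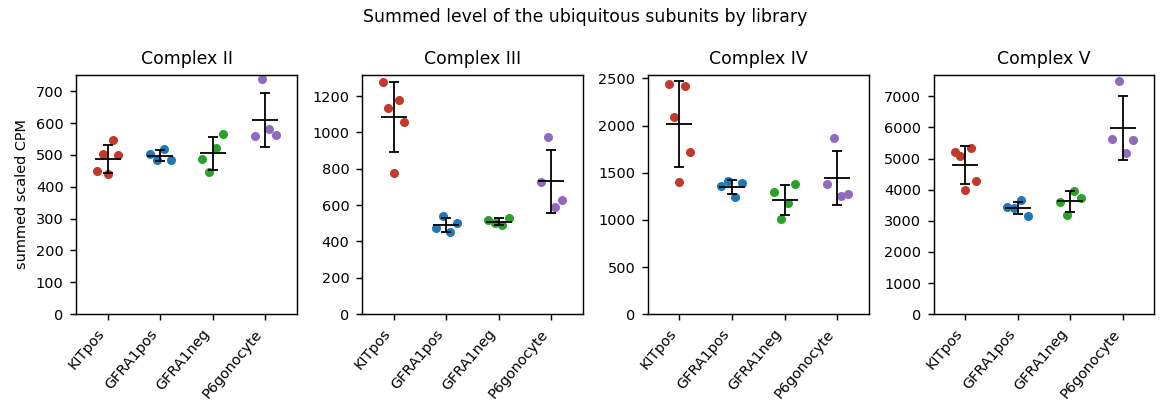
Summed scaled CPM of the ubiquitous subunit genes of complexes II, III, IV and V in each library (points), with the mean and SD of each group (bars); the vertical axes start at 0 and differ between panels. KITpos libraries lie above both adult Kit-negative groups for complex III, and for complex V KITpos and P6gonocyte libraries overlap, averaging 4783 and 5974 CPM, of which Atp5b alone makes up 1659 and 3504 CPM.

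Of the 48 genes, 45 passed the count filter and were tested; Cox4i2, Cox6a2 and Cox8b did not. With edgeR's quasi-likelihood test and Benjamini-Hochberg adjustment over 15451 genes, 29 of the 45 were higher in KITpos than in GFRA1neg at an adjusted p under 0.05 and 1 was lower, against 22.1% of all genes tested called higher and 23% called lower, 45.1% in all. The median log2 fold change of the 45 was 1.08, against 0.03 over all genes tested. Against GFRA1pos, 29 were again higher and 1 lower in KITpos, where the shares of all genes were 24.9% higher and 23.7% lower, 48.6% in all, and the median was 0.96 against 0.07. Both comparisons share the KITpos libraries. The gene called lower was Sdha in each. DESeq2 called Sdha and a second gene lower in each, Atp5b against GFRA1neg and Cox7a2l against GFRA1pos; limma voom called Sdha lower against GFRA1pos but Atp5b in its place against GFRA1neg. At an unadjusted p under 0.05, 31 genes were higher and 2 lower against GFRA1neg and 33 higher and 2 lower against GFRA1pos, with the same second gene in each. Without the 4 libraries highest in spermatid markers, 30 genes were higher and 1 lower against GFRA1neg and 27 higher and 1 lower against GFRA1pos; the lower gene was Atp5b, not Sdha, against GFRA1neg and Sdha against GFRA1pos. Without KITpos replicate 3 the numbers higher were 31 and 30. By group mean, 31 of the 45 genes were highest in KITpos, 2 in GFRA1pos, 2 in GFRA1neg and 10 in P6gonocyte. The matching shares over all genes tested were not computed, so these counts have no background beside them.

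**Figure D2:**
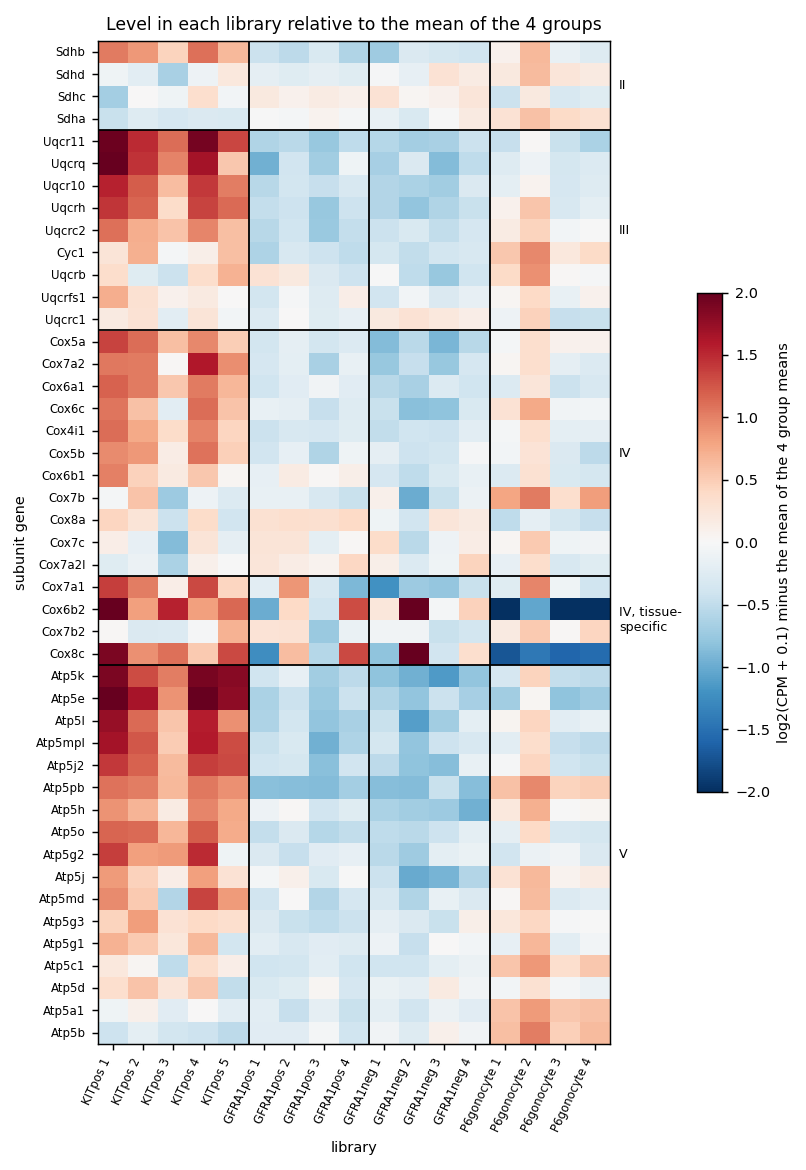
Level of the 45 tested subunit genes in each of the 17 libraries, as log2(CPM + 0.1) minus the mean of the 4 group means, with genes grouped by complex and libraries by group; red is above and blue below that mean, cut at 2 in either direction. Most genes of complexes III, IV and V are red in the KITpos columns, whereas Atp5b, Atp5a1, Cox7b and Sdha are reddest in the P6gonocyte columns.

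Complex II was split between its subunits. Sdhb, the iron-sulfur subunit, had 109.6, 97.5, 72.5, 115 and 84.2 CPM in the KITpos libraries, 39.8, 37.0, 43.4 and 35.1 in GFRA1pos, 32.7, 43.9, 41.8 and 40.7 in GFRA1neg and 56.5, 83.8, 48.3 and 44.8 in P6gonocyte. All KITpos libraries were above all adult Kit-negative libraries. The log2 fold change was 1.27 ± 0.179 (SE) against GFRA1neg (adjusted p = 1.14e-05), 1.30 ± 0.179 against GFRA1pos (adjusted p = 7.72e-06) and 0.71 ± 0.176 against P6gonocyte (adjusted p = 0.00261). Sdha, the flavoprotein that oxidises succinate, had 199.9, 229, 216, 224 and 221 CPM in KITpos, 272, 267, 287 and 266 in GFRA1pos, 247, 222, 270.1 and 309 in GFRA1neg and 332, 411, 357 and 338 in P6gonocyte. Its mean was lowest in KITpos, which overlapped GFRA1neg but not GFRA1pos, and highest in P6gonocyte, which overlapped no adult library. In KITpos, Sdha fell by 0.32 ± 0.106 against GFRA1pos (log2, adjusted p = 0.0167) and by 0.72 ± 0.106 against P6gonocyte (adjusted p = 3.12e-05). The fall of 0.26 ± 0.106 against GFRA1neg was at the threshold (adjusted p = 0.0497) and was lost in 14 of the 17 fits that left out 1 library and in 5 of the 10 other settings. Sdhc and Sdhd, the membrane anchors that bind ubiquinone, did not pass the test between any adult groups, with log2 fold changes of -0.23 ± 0.158 and -0.22 ± 0.149 in KITpos against GFRA1neg. Sdhd was lower than P6gonocyte in both KITpos, by -0.47 ± 0.148 (adjusted p = 0.0143), and GFRA1pos, by -0.53 ± 0.157 (adjusted p = 0.0117).

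In complex III, 7 of 9 genes were higher in KITpos than in GFRA1neg and 6 of 9 than in GFRA1pos, and none was lower; the median log2 fold changes were 1.20 and 1.35. Uqcr11, a small accessory subunit, had 126, 91.4, 70.3, 122.5 and 82.5 CPM in KITpos, 21.5, 22.3, 19.2 and 22.7 in GFRA1pos, 21.8, 20.2, 20.8 and 24.0 in GFRA1neg and 23.5, 33.2, 23.8 and 21.0 in P6gonocyte. Its lowest KITpos library was above the highest library of every other group. The difference was 2.18 ± 0.179 against GFRA1neg, 2.20 ± 0.179 against GFRA1pos and 1.96 ± 0.178 against P6gonocyte on the log2 scale (adjusted p = 1.8e-08, 1.35e-08 and 1.39e-07). The other small accessory subunits Uqcrq, Uqcr10 and Uqcrh were 3.32 to 4.06 times higher in KITpos than in GFRA1neg; Uqcrb, at 48.7 CPM in KITpos and 32.2 in GFRA1neg, did not pass the test (adjusted p = 0.0538). Pseudogenes are named for Uqcrh, so its counts may be shared with them.

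The core subunits differed among themselves. Uqcrc2 averaged 155 ± 25.5 CPM in KITpos against 67.2 ± 4.11 in GFRA1neg, a log2 fold change of 1.20 ± 0.137 (adjusted p = 9.4e-07), while its partner Uqcrc1 averaged 103 CPM in KITpos and 110.4 in GFRA1neg, a change of -0.10 ± 0.162 (adjusted p = 0.647). Uqcrc1 passed the test in none of the 5 comparisons. Cyc1, the cytochrome c1 that hands electrons to cytochrome c, had 195, 266, 159, 176 and 247 CPM in KITpos, 106, 130.4, 122 and 114.5 in GFRA1pos, 127, 115, 126 and 129.9 in GFRA1neg and 235, 316, 189 and 213 in P6gonocyte. KITpos and P6gonocyte overlapped, and both lay above the adult Kit-negative groups. Cyc1 was higher in KITpos than in GFRA1neg by 0.74 ± 0.159 (adjusted p = 0.000772) and than in GFRA1pos by 0.82 ± 0.160 (adjusted p = 0.000306). GFRA1pos was lower than P6gonocyte by -1.01 ± 0.167 (adjusted p = 0.000186). Uqcrfs1, the Rieske iron-sulfur protein, rose by 0.51 ± 0.165 in KITpos against GFRA1neg (adjusted p = 0.0173), a call lost without KITpos replicate 1 or without GFRA1neg replicate 1, and missed the threshold against GFRA1pos at 0.40 ± 0.165 (adjusted p = 0.0516).

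Among the 11 ubiquitous complex IV genes, 7 were higher in KITpos than in GFRA1neg and than in GFRA1pos, and none was lower. Cox4i1, the subunit through which ATP inhibits the enzyme, had 619, 484, 369, 569.8 and 385 CPM in KITpos, 212, 229, 226 and 243 in GFRA1pos, 203, 218, 214 and 247 in GFRA1neg and 279, 361, 250.3 and 254 in P6gonocyte. Again every KITpos library exceeded every other library. The log2 fold change was 1.14 ± 0.154 against GFRA1neg (adjusted p = 7.11e-06), 1.09 ± 0.154 against GFRA1pos (adjusted p = 1e-05) and 0.76 ± 0.152 against P6gonocyte (adjusted p = 0.000489). Cox5a, a matrix-side structural subunit, rose to 151 ± 36.8 CPM in KITpos, against 48.2 ± 6.67 in GFRA1neg, with a log2 fold change of 1.65 ± 0.161 (adjusted p = 1.43e-07). Cox5b, Cox6a1, Cox6b1, Cox6c and Cox7a2 rose by 0.81 to 1.58 against GFRA1neg and by 0.45 to 1.33 against GFRA1pos. For Cox6b1, which links the 2 monomers of the enzyme, the rise of 0.45 ± 0.179 against GFRA1pos (adjusted p = 0.0444) was lost in 13 of the 17 fits that left out 1 library.

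The other 4 ubiquitous complex IV genes did not pass the test between adult groups. Cox7b had 31.8, 48.4, 19.6, 30.4 and 26.9 CPM in KITpos, 29.4, 29.4, 26.0 and 24.0 in GFRA1pos, 34.8, 16.4, 23.9 and 30.0 in GFRA1neg and 56.4, 67.1, 41.1 and 58.3 in P6gonocyte. It was lower than P6gonocyte in GFRA1pos, by -1.03 ± 0.244 (adjusted p = 0.00269), and in KITpos, by -0.82 ± 0.229 (adjusted p = 0.00611). Cox8a ran the other way: it averaged 104 CPM in KITpos and 124 in GFRA1pos, against 75.8 CPM in P6gonocyte, with log2 fold changes over P6gonocyte of 0.46 ± 0.175 (adjusted p = 0.0354) and 0.70 ± 0.183 (adjusted p = 0.00525). The KITpos call for Cox8a was lost in 6 of the 17 fits that left out 1 library and in 4 of the 10 other settings. Cox7a2l, which takes part in joining complexes III and IV into supercomplexes, and Cox7c passed the test in none of the 5 comparisons.

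**Figure D3:**
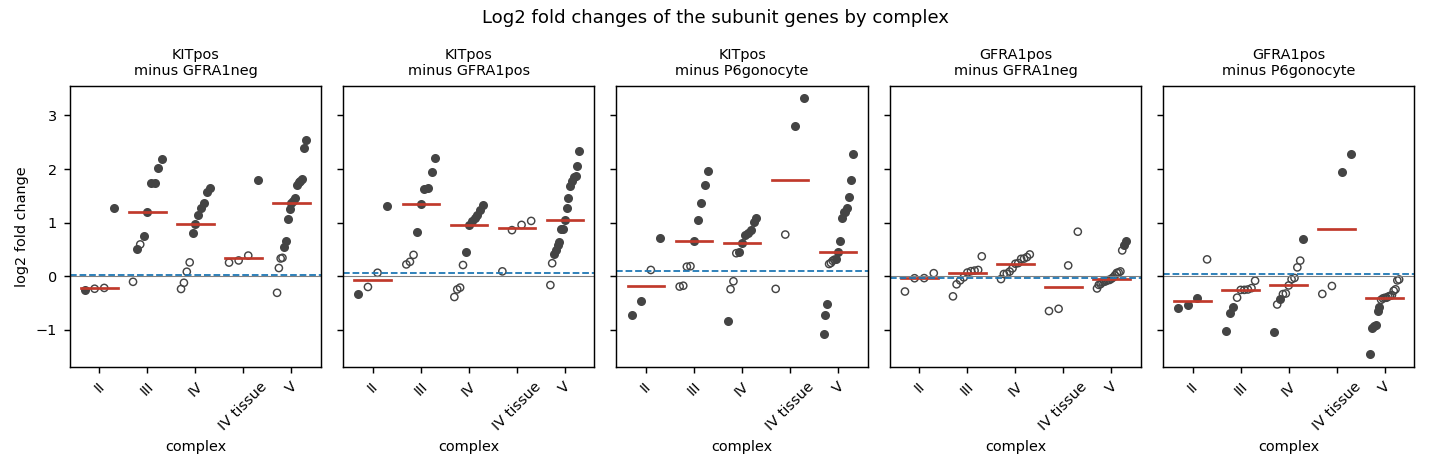
Log2 fold changes of the 45 tested genes in the 5 comparisons, by complex, with tissue-specific complex IV isoforms apart; filled points had an edgeR adjusted p under 0.05, red bars are medians and the dashed blue line is the median of all genes tested. Medians of complexes III, IV and V lie near 1 or above in the first 2 panels and near 0 between GFRA1pos and GFRA1neg.

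Of the 7 tissue-specific complex IV isoforms, 4 were tested. Cox6b2, known as the testis isoform of Cox6b1, had 50.1, 20.8, 34.0, 20.8 and 26.0 CPM in KITpos, 5.86, 15.4, 8.86 and 29.1 in GFRA1pos, 13.7, 51.3, 11.3 and 16.1 in GFRA1neg and 1.81, 5.65, 2.17 and 2.47 in P6gonocyte. Every adult library was above every P6gonocyte library, and the adult groups overlapped. Cox6b2 was higher than in P6gonocyte by 3.32 ± 0.557 in KITpos (log2, adjusted p = 0.000109) and by 2.28 ± 0.557 in GFRA1pos (adjusted p = 0.00348). Cox8c, a testis isoform of Cox8a, had 74.6, 38.3, 43.6, 29.0 and 50.4 CPM in KITpos, 8.43, 31.1, 13.6 and 50.6 in GFRA1pos, 11.5, 105, 15.4 and 25.6 in GFRA1neg and 6.11, 7.46, 6.62 and 6.87 in P6gonocyte. It was higher by 2.80 ± 0.605 in KITpos (adjusted p = 0.000953) and by 1.94 ± 0.609 in GFRA1pos (adjusted p = 0.017), both against P6gonocyte. Neither gene passed the test between adult groups by edgeR with all libraries. Without the 4 libraries highest in spermatid markers, both were called higher in KITpos than in GFRA1neg and than in GFRA1pos. Both were also called higher in KITpos than in GFRA1neg without GFRA1neg replicate 2. Against GFRA1pos, Cox6b2 but not Cox8c was called higher in KITpos by limma voom, without GFRA1pos replicate 4 or without GFRA1neg replicate 2.

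Within each adult Kit-negative group, both genes were highest in the libraries with the most late germ cell markers, namely GFRA1pos replicates 4 and 2 and GFRA1neg replicate 2. In KITpos, replicate 1 was highest for both genes (50.1 and 74.6 CPM) and for the spermatid markers. The highest spermatocyte sum of that group, 550 CPM, was in replicate 5. The summed spermatid markers were 62.6 to 1500 CPM in GFRA1pos and 305 to 1129 CPM in KITpos, against 8.78 to 11.5 CPM in P6gonocyte, where Prm1 was at 0 in all 4 libraries. Without the 4 libraries highest in spermatid markers, the difference of GFRA1pos from P6gonocyte was 1.25 for Cox6b2 (adjusted p = 0.024) and 0.67 for Cox8c (adjusted p = 0.123), so the Cox8c call ended; without GFRA1pos replicate 4 alone the adjusted p for Cox8c was 0.0868. By limma voom neither GFRA1pos call held (adjusted p = 0.0502 for Cox6b2 and 0.123 for Cox8c). The KITpos differences without those 4 libraries were 3.01 for Cox6b2 and 2.52 for Cox8c (adjusted p = 2.08e-06 and 1.37e-06). Of KITpos, only replicate 1 was left out in that fit. The KITpos libraries kept still had 304.5 to 684.9 CPM of spermatid markers, so the fit did not free KITpos of late germ cell transcripts.

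Cox7b2, another testis isoform, averaged 32.3 ± 10.1 CPM in KITpos, 30.2 ± 9.03 in GFRA1pos, 26.2 ± 3.45 in GFRA1neg and 37.9 ± 5.92 in P6gonocyte, and passed the test in none of the 5 comparisons. Cox7a1, an isoform of heart and skeletal muscle, was low throughout: 4.48, 3.48, 1.82, 4.26 and 2.25 CPM in KITpos against 0.659, 0.960, 0.924 and 1.18 CPM in GFRA1neg, which did not overlap, with a log2 fold change of 1.79 ± 0.478 (adjusted p = 0.00467). Cox6a2 and Cox8b, both known from heart and skeletal muscle, and Cox4i2, known from lung, stayed at or below 1.02 CPM in every library. Cox4i2 had no count in any GFRA1neg library, where 3 counts over the group would be 0.0715 CPM; this covers counting error only.

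**Figure D4:**
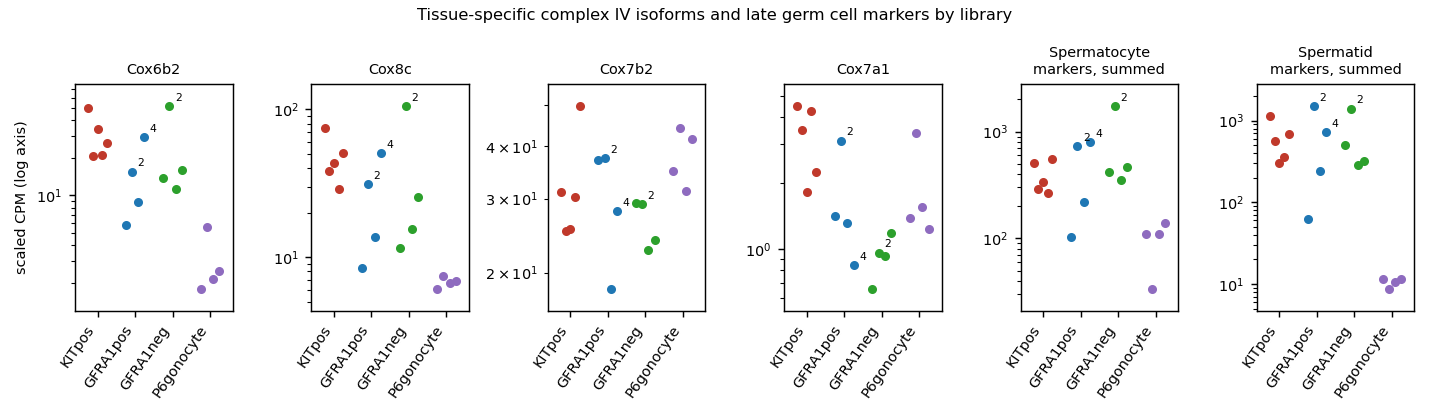
Scaled CPM, on log axes, of 4 tissue-specific complex IV isoforms and of the summed spermatocyte and spermatid markers in each library, coloured by group; the digits mark GFRA1pos replicates 2 and 4 and GFRA1neg replicate 2. Cox6b2, Cox8c and the spermatid sum are lower in every P6gonocyte library than in any adult library, and the spermatocyte sum has its lowest mean in P6gonocyte; Cox6b2 and Cox8c peak in GFRA1neg replicate 2, at 51.3 and 105 CPM.

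In ATP synthase, 13 of 17 genes were higher in KITpos than in GFRA1neg and 15 of 17 than in GFRA1pos, with median log2 fold changes of 1.37 and 1.06. All 5 small membrane subunits (Atp5j2, Atp5k, Atp5l, Atp5md and Atp5mpl), all 4 peripheral stalk subunits and all 3 c ring genes were higher in KITpos in both comparisons. Of the 5 subunits of the catalytic head and central stalk, Atp5e was called higher than in GFRA1neg, and Atp5e, Atp5d and Atp5c1 than in GFRA1pos. Atp5d, the delta subunit, rose by 0.49 ± 0.170 (adjusted p = 0.0224) and Atp5c1 by 0.42 ± 0.146 (adjusted p = 0.0245) against GFRA1pos, and each call was lost in 4 of the 17 fits that left out 1 library and without the 4 libraries highest in spermatid markers (adjusted p = 0.204 and 0.211).

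Atp5e, the epsilon subunit of the central stalk, had 294, 223, 133, 323 and 246 CPM in KITpos, 45.6, 52.5, 42.5 and 52.7 in GFRA1pos, 46.6, 41.2, 52.7 and 44.5 in GFRA1neg and 43.9, 73.2, 40.7 and 43.4 in P6gonocyte. The KITpos libraries lay apart from all others, 5.27 times above GFRA1neg, 5.04 times above GFRA1pos and 4.84 times above P6gonocyte (adjusted p = 7.75e-08, 9.06e-08 and 3.22e-07). Atp5b, the catalytic beta subunit of the same head, had 1620, 1881, 1666, 1626 and 1502 CPM in KITpos, 1848, 1837, 2101 and 1643 in GFRA1pos, 2046, 1799, 2315 and 2050 in GFRA1neg and 3289, 4368, 3019 and 3341 in P6gonocyte. Adult groups overlapped, and all of them lay below P6gonocyte. The difference was -0.31 ± 0.127 in KITpos against GFRA1neg (adjusted p = 0.0556), -1.08 ± 0.127 in KITpos against P6gonocyte (adjusted p = 2.78e-06) and -0.92 ± 0.135 in GFRA1pos against P6gonocyte (adjusted p = 7.44e-05). Atp5a1, the alpha subunit, averaged 447 ± 44.3 CPM in KITpos, 377.5 ± 39.8 in GFRA1pos, 402 ± 29.0 in GFRA1neg and 733 ± 77.2 in P6gonocyte; it was lower than P6gonocyte by -0.71 ± 0.111 in KITpos and by -0.96 ± 0.118 in GFRA1pos (adjusted p = 5.25e-05 and 1.81e-05). Atp5c1, the rotating gamma subunit, was also lower than P6gonocyte in both, by -0.51 ± 0.144 and -0.93 ± 0.154 (adjusted p = 0.00667 and 0.000194), and pseudogenes are named for it.

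Atp5pb, the b subunit of the peripheral stalk, had 219, 211, 163, 216 and 196 CPM in KITpos, 57.8, 57.3, 56.6 and 64.3 in GFRA1pos, 57.1, 56.8, 75.9 and 57.5 in GFRA1neg and 155, 202, 142 and 145 in P6gonocyte. The adult Kit-negative groups sat together at the bottom, and KITpos and P6gonocyte overlapped. The difference was 1.70 ± 0.136 in KITpos against GFRA1neg (adjusted p = 1.27e-08), 1.77 ± 0.136 against GFRA1pos (adjusted p = 7.01e-09) and -1.45 ± 0.140 in GFRA1pos against P6gonocyte (adjusted p = 2.09e-06). Pseudogenes are named for Atp5pb too. Its rise of 0.32 ± 0.130 in KITpos against P6gonocyte (adjusted p = 0.0479) was lost in 13 of the 17 fits that left out 1 library. The 3 c ring genes encode the same mature proton-carrying subunit behind different import peptides. In KITpos against GFRA1neg, Atp5g2 rose by 1.37 ± 0.228 (adjusted p = 6.71e-05), Atp5g3 by 0.66 ± 0.138 (adjusted p = 0.000631) and Atp5g1 by 0.54 ± 0.198 (adjusted p = 0.0322). The Atp5g1 call was lost in 6 of the 17 fits that left out 1 library.

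Few subunits were called between the adult Kit-negative groups. Of the 45 genes, 2 were higher in GFRA1pos than in GFRA1neg and none lower, against 7.3% of all genes tested higher and 6.84% lower, 14.1% in all, so the share among the subunits was not above that background; the medians were 0.05 and -0.04. At an unadjusted p under 0.05, edgeR gave 4 higher and 1 lower, and DESeq2 and limma voom each called 2 higher and 0 lower after adjustment. Both calls were peripheral stalk genes of ATP synthase. Atp5j, coupling factor F6, had 68.7, 75.4, 56.6 and 70.0 CPM in GFRA1pos against 52.2, 34.7, 36.6 and 46.9 in GFRA1neg, and Atp5h, the d subunit, had 85.8, 93.4, 70.8 and 78.0 CPM against 59.6, 57.3, 55.8 and 47.4. The groups did not overlap for either gene. The log2 fold changes were 0.67 ± 0.181 for Atp5j (adjusted p = 0.0174) and 0.57 ± 0.175 for Atp5h (adjusted p = 0.0326). Neither was called without the 4 libraries highest in spermatid markers (0.51 and 0.58, adjusted p = 0.154 and 0.133), nor without GFRA1pos replicate 2 or GFRA1neg replicate 3.

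Compared with the day 6 cells, GFRA1pos was lower for 14 of the 45 genes and higher for 3, against 17.3% of all genes tested lower and 21.9% higher, 39.2% in all; the median was -0.35 against 0.05. The 14 comprised Sdha, Sdhb and Sdhd, Cyc1, Uqcrc2 and Uqcrh, Cox5a and Cox7b, and 6 genes of ATP synthase. The Cox5a call (edgeR adjusted p = 0.0449) was lost in 9 of the 17 fits that left out 1 library and in 5 of the 10 other settings. Of the same 17 fits, the call was lost in 5 for Atp5l, 3 for Uqcrh and 2 for Sdhb. Sdhb and Sdhd each lost the call in 1 of the 10 other settings. The 3 higher genes were Cox6b2, Cox8c and Cox8a. Without P6gonocyte replicate 2, the library richest in these transcripts, 10 genes were lower and 5 higher. KITpos was higher than P6gonocyte for 25 genes and lower for 6, against 27.3% and 21.8% of all genes tested, 49.1% in all, with a median of 0.62 against 0.09. The 6 lower genes were Sdha, Sdhd, Cox7b, Atp5a1, Atp5b and Atp5c1. Without P6gonocyte replicate 2, 29 were higher and 5 lower.

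Many subunits are short proteins, and the size of the KITpos difference went with length among all genes as well. Of 929 genes tested whose longest annotated coding sequence is under 150 residues, 47.8% were higher in KITpos than in GFRA1neg, with a median log2 fold change of 0.67. Of 5090 genes of 600 residues or more, 16.1% were higher and 31.4% lower, with a median of -0.15. Among the subunit genes under 150 residues, 21 of 29 were higher, with a median of 1.28. The 10 subunit genes of at least 150 and under 300 residues had a median of 0.82, against 0.28 over 2869 genes of that length, and 6 of them were called higher. Across genes, Spearman's rho between residues and log2 fold change was -0.225 over 14337 genes and -0.42 over the 45 subunits, which share libraries and are not independent. In KITpos against P6gonocyte 51.2% of genes under 150 residues were higher and rho was -0.139 over all genes and -0.519 over the subunits. GFRA1pos against P6gonocyte showed no such fall with length over all genes, with rho at 0.075, against -0.374 over the subunits. How far length contributes to the subunit differences was not tested.

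**Figure D5:**
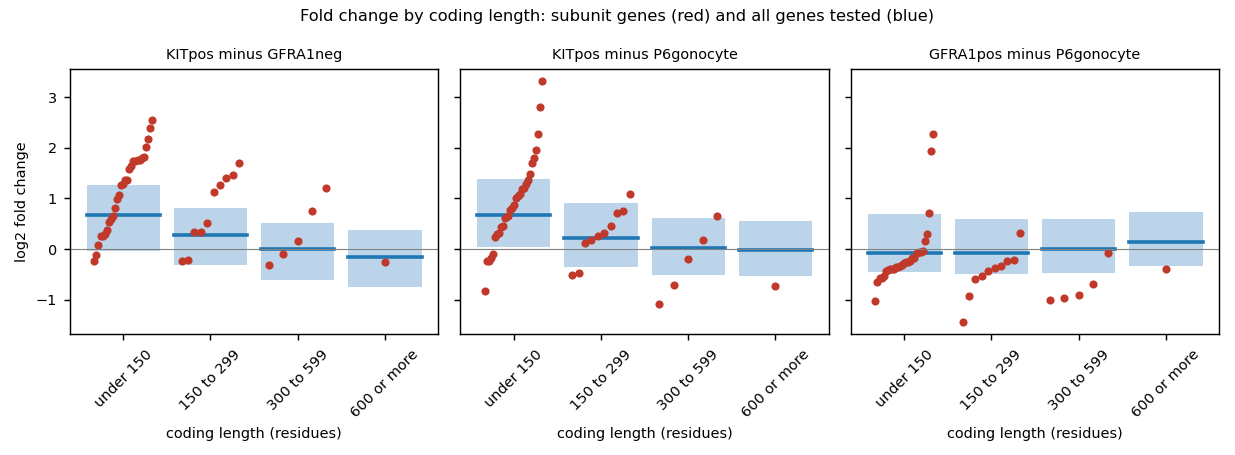
Log2 fold change by coding length in 3 comparisons: blue boxes span the quartiles of all genes tested, with the median as a line, and red points are the 45 subunit genes. In KITpos against GFRA1neg the median of all genes is 0.67 under 150 residues and -0.15 at 600 residues or more.

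Related mitochondrial genes were counted in the same fit. Of 38 genes with a complex I (Nduf) symbol, 30 were higher in KITpos than in GFRA1neg. These were taken by symbol alone and include Ndufa4, Ndufa4l2 and Ndufs5-ps, a row named as a pseudogene. Not all of them need be complex I subunits. Of 78 mitochondrial ribosomal proteins 53 were higher and 2 lower. The shares of all genes tested in this comparison were 22.1% higher and 23% lower. Of 33 assembly factors of complexes II to V, 17 were higher and 1 was lower. Coa3 and Coa6, which act in complex IV assembly, rose by 1.79 ± 0.232 and 1.70 ± 0.287, Sdhaf4 of complex II by 1.75 ± 0.267 and Uqcc2 of complex III by 1.60 ± 0.214 (adjusted p of 8.16e-05 or less), whereas Coa5 fell by 0.58 ± 0.114 (adjusted p = 0.000342). Cycs, somatic cytochrome c, averaged 190 CPM in KITpos, 63.2 in GFRA1pos, 64.5 in GFRA1neg and 172 in P6gonocyte, a rise of 1.56 ± 0.197 in KITpos against GFRA1neg (adjusted p = 3.28e-06). Cyct, the testis cytochrome c, averaged 15.2 CPM in KITpos against 21.9 in GFRA1neg, a fall of -0.53 ± 0.210 (adjusted p = 0.0452). Atpif1, the inhibitor of ATP synthase, averaged 84.5 CPM in KITpos, 79.9 in GFRA1pos, 81.1 in GFRA1neg and 75.7 in P6gonocyte and passed no test.

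Of 13 enzymes of the tricarboxylic acid cycle, which feeds electrons to the chain, 5 (38.5%) were higher and 2 lower in KITpos than in GFRA1neg. The shares of all genes tested were 22.1% higher and 23% lower, so the share of falls was not above that background. In GFRA1pos against P6gonocyte, 7 of the 13 were lower, where 17.3% of all genes tested were. Dlst, the succinyltransferase of the oxoglutarate dehydrogenase complex, averaged 34.5 CPM in KITpos against 103 in GFRA1neg, a fall of -1.58 ± 0.189 (adjusted p = 1.72e-06). Among 12 tested regulators of mitochondrial biogenesis, 6 (50%) were higher and 2 lower in KITpos than in GFRA1neg. Here too the share of falls was not above the 23% of all genes tested. Tfam, which packages and transcribes mitochondrial DNA, rose by 1.01 ± 0.207, Gabpa, an ETS factor, by 0.83 ± 0.128, and Nrf1 by 0.62 ± 0.137 (adjusted p = 0.000533, 3.09e-05 and 0.00104). Both falls were coactivators: Pprc1 averaged 203 CPM in KITpos against 438 in GFRA1neg, and Ppargc1b 0.547 CPM against 3.82 (log2 fold changes of -1.11 ± 0.185 and -2.78 ± 0.538). Against GFRA1pos, 1 of the 12 was lower in KITpos (23.7% of all genes tested), and the lowest log2 fold change was -1.065. The difference of Ppargc1b was therefore smaller against GFRA1pos than against GFRA1neg. In GFRA1pos against GFRA1neg, 3 of the 12 were lower (6.84% of all genes tested), down to -2.396. Ppargc1a was under the count filter in these cells.

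Nrf1 and the ETS factor Gabpa are known to bind promoters of respiratory chain genes, so the letters of their motifs were searched on both strands in promoter windows from RefSeq (GRCm38.p6), 250 bases before to 50 after a gene's start. Windows were found for 36 of the 48 genes, 39 in all. The NRF1 motif (GCGCA, any base, GCGC) was in 25.6% of the 39 windows, 8.89% of 15316 windows of genes tested here and 4.6% of all 32851 windows. The ETS motif CCGGAAG was in 33.3% of the subunit windows, 15.5% of those of genes tested and 8.86% of all. Of the 24 windows of subunit genes higher in KITpos than in GFRA1neg, 11 held the ETS motif, against 2 of the 15 other windows; for the NRF1 motif the counts were 6 of 24 and 4 of 15. The YY1 motif AANATGGC was in 12.8% of subunit windows, 7.53% of those of genes tested and 6.05% of all. The E-box CACGTG was in 10.3% of subunit windows, close to the 9.62% of genes tested, and in 7.15% of all. A match describes the letters alone.

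The windows holding both the NRF1 and the ETS motif are shown because they carry the letters most frequent in this group; they are the 250 bases before the start, read along the gene's strand, with motif matches in capitals. They belong to Atp5h (chr11:115419920-115420169, minus strand), Atp5k (chr5:108434400-108434649, minus strand), Cox6a1 (chr5:115348959-115349208, minus strand) and Sdhd (chr9:50603850-50604099, minus strand). In Atp5k the ETS match lies just after the start and is outside the stretch shown.
Atp5h: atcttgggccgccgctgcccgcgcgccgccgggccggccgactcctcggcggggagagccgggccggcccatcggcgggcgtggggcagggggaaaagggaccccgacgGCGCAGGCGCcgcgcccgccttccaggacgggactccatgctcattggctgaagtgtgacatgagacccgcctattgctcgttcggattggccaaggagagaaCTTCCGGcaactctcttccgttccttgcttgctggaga
Atp5k: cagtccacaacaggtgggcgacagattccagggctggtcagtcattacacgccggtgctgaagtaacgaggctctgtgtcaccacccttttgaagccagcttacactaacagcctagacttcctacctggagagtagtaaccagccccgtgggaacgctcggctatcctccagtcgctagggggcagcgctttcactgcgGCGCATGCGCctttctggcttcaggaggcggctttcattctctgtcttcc
Cox6a1: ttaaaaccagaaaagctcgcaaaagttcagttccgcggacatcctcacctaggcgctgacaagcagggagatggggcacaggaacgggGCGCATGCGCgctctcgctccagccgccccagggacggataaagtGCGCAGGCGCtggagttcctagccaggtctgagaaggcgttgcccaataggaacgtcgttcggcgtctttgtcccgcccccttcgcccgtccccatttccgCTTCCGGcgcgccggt
Sdhd: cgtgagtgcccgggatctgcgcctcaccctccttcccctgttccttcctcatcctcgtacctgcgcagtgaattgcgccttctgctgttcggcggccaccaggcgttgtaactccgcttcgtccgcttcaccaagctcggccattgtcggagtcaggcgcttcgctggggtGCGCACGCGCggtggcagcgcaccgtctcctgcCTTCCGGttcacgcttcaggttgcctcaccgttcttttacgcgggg
Among these genes, Atp5h, Atp5k and Cox6a1 rose in KITpos against GFRA1neg, by 1.47 ± 0.171, 2.54 ± 0.225 and 1.37 ± 0.157, and Sdhd, with the same pair of motifs, did not pass the test. Pseudogenes are named for Atp5k, so its counts may be shared with them.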

How the data were processed

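For each of 17 libraries the authors deposited read counts per Entrez gene number, whole numbers that show no normalization. Per the labels' protocols, little RNA per sort was available, so cDNA was amplified (NuGEN Ovation V2) before TruSeq V2 library preparation and paired-end HiSeq sequencing at 101 bp. Tools named in the submitters' processing notes, without roles, are TopHat2 2.0.4, Bowtie2 2.0.0-6, Bowtie, Trim Galore, DESeq and DESeq2, with the build mm9. The sources used here do not give the counting program, annotation or strand setting, so overlapping genes cannot be told apart. Groups and replicate numbers came from sample titles; 1 column header has GFP for GFR and was taken as replicate 1 of GFRA1pos, which no other column matched. Symbols were matched for 23930 of 24013 rows with a RefSeq gene table.

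The test was edgeR's quasi-likelihood F-test (version 4.0.16 under R 4.3.3). It was fitted to the 4 groups together with TMM scaling after filterByExpr. P-values were adjusted by Benjamini-Hochberg over 15451 genes, and an adjusted p under 0.05 was a call. The common biological coefficient of variation was 0.3. CPM use TMM-scaled totals, and an SE belongs to a log2 fold change. The code of the fit was run on simulated counts with known fold changes in a small set of genes, in KITpos alone. Every simulated gene had the same spread. These data are less simple, so that run checked the code and not the calls made here. Alternatives were RLE and upper-quartile scaling, other count filters, DESeq2 1.42.0, limma voom 3.58.1, only the 2 groups compared, a replicate block, leaving out the 2 most abundant rows, the 4 libraries highest in spermatid markers, or each library in turn. Replicate pairs had a chi-square per degree of freedom of 4.13 to 51 over 28 pairs, so none was a duplicate. Coding length was the longest coding sequence in GENCODE, found for 92.8% of genes tested; it replaced the RefSeq protein length planned, and isoform proteins were not analysed here.

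The members, lists, comparisons and tests were chosen with earlier results of these data known. Genes named were the tissue-specific isoforms with their paralogues, catalytic or core subunits, the member with the smallest adjusted p per complex, comparison and direction, members called against the direction of their complex, and members under the count filter; the pathway genes named, and Atp5k among the promoters, were picked after their values were seen. Pseudogenes are named for 7 of the 48 genes (Uqcrh, Cox5b, Cox7c, Atp5c1, Atp5k, Atp5l and Atp5pb), whose counts are uncertain. Only pseudogenes whose symbol is built from the gene's own symbol were looked for. Pseudogenes under other names were not, so the counts of the remaining genes were not checked for this.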

Additional observations from a re-analysis of the deposited data

Results flagged for a closer look

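In 14 of 148 combinations of a group and a gene or sum, a single library lay far from the rest of its group by Dixon's criterion, which chance meets in about 1 in 20 groups. P6gonocyte replicate 2 was that library in 7 of them, always as the highest. It had 848.7 CPM of Atp5a1 (703.0 in the next library), 73.23 CPM of Atp5e (next 43.88), 245.5 CPM of Atp5g1 (next 149.5), 65.05 CPM of Cox6b1 (next 43.32), 3.367 CPM of Cox7a1 (next 1.553), 119.9 CPM of Sdhd (next 91.29) and 737.3 CPM summed over complex II (next 582.4). The same library had 51.0 CPM of summed Sertoli markers against 21.9 to 24.3 CPM in the rest of its group, and the part of these in its subunit levels was not tested.

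GFRA1neg replicate 2 was the highest of its group for the testis isoforms, with 51.34 CPM of Cox6b2 (next 16.09), 104.9 CPM of Cox8c (next 25.56) and 186.6 CPM summed over the tissue-specific isoforms (next 67.12). It also had the highest spermatocyte markers of any library, 1726 CPM.

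Single genes stood out in 4 more cases. KITpos replicate 2 had 156.5 CPM of Atp5g3 and KITpos replicate 5 had 49.72 CPM of Cox7b2, each against at most 119.4 and 31.08 CPM in the other KITpos libraries. Atp5pb reached 64.27 CPM in GFRA1pos replicate 4 and 75.91 CPM in GFRA1neg replicate 3, against at most 57.75 and 57.45 CPM in the rest of those groups.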

How the results depend on the processing

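No direction reversed among the 110 calls of single subunits: 58 repeats under other settings lost the call and 1042 kept it, and with 1 library left out 109 lost it and 1761 kept it. The medians by complex moved by less than the spread in all 540 repeats. The spread was the SD between libraries of the median log2 CPM of a complex, taken from the more variable of the groups compared. Leaving out 1 library can hardly move a median that far, so those repeats say little about stability. Genes lower in KITpos than in GFRA1neg numbered 2 with RLE or upper-quartile scaling, DESeq2 or the 2 most abundant rows left out, and 0 without the count filter or with only the 2 groups; against GFRA1pos they numbered 2 with those scalings, DESeq2 or the rows left out. By limma voom 1 gene was higher in GFRA1pos than in P6gonocyte. Between GFRA1pos and GFRA1neg, 0 subunits and 1268 genes were called without the 4 libraries highest in spermatid markers, and with only these 2 groups 4 subunits, 1 of them lower; without those libraries 3971 genes differed between GFRA1pos and P6gonocyte. The causes were not tested.

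Replicate numbers did not meet the criterion for pairing, a correlation above 0.1 in every pair, and the labels give no shared source. Same-numbered deviations correlated at 0.48 to 0.60 for replicates 1 to 3 of GFRA1pos and GFRA1neg but at -0.022 for replicate 4. In that comparison 4 of 8 libraries correlated best with their own number. The highest such count in any comparison was 5 of 8, for KITpos and P6gonocyte. With the replicate block, 30 subunits were higher and 0 lower in KITpos than in GFRA1neg, 30 and 2 than in GFRA1pos, and 3 higher (Atp5h, Atp5j and Cox5a) and 0 lower in GFRA1pos than in GFRA1neg.

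With each library left out in turn, subunits higher in KITpos numbered 27 to 31 against GFRA1neg (0 to 2 lower), 26 to 30 against GFRA1pos (1 to 2 lower) and 21 to 29 against P6gonocyte (5 to 6 lower). GFRA1pos had 0 to 2 subunits called against GFRA1neg, and 10 to 16 lower and 2 to 5 higher against P6gonocyte. Depth limits the 3 genes under the count filter, at or below 1.02 CPM.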
